A study of Mus musculus with 6 samples.

Results

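The renin-angiotensin system was followed through 8 of its genes, Agt, Ace, Enpep, Lnpep, Agtr1a, Agtr2, Mas1 and Atp6ap2, out of 23282 rows in each deposited table. They were chosen by their gene symbols, with the CPM of the NCD and HFD libraries already known, so the diet values of these 8 genes are a description: no p is given for any of them, and how many pass a threshold is only counted beside the share of all genes. RNA-Seq was performed on forebrain hemispheres, without olfactory bulbs and cerebellum, of C57BL/6J male mice of wild-type genotype, 8 to 10 weeks old. Normal chow diet (NCD) was fed to the mice of 3 libraries and high-fat diet (HFD, 60 kcal% fat) to those of the other 3, each for 10 days. The sources used here do not say whether a library held 1 animal or several, so p-values measure only the spread between these libraries, which may be technical. Total counts ran from 6842785 to 9689372 reads per library, and levels are given as CPM, read counts scaled to a common library size after TMM correction.

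The renin-angiotensin system makes peptide hormones that set blood pressure, thirst and salt balance. Renin cuts angiotensinogen (Agt), the only known precursor, to angiotensin I, angiotensin-converting enzyme (Ace) trims this to angiotensin II, and the aminopeptidases Enpep and Lnpep act on or bind the later fragments. Angiotensin II acts through the receptors of Agtr1a and Agtr2, and a shorter fragment acts through Mas1. In the brain, angiotensinogen is made mainly by astrocytes, and Ace is known from choroid plexus, blood vessels and striatal neurons.

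The stretches that give the precursor and the enzymes their function are shown to make the members concrete, as read from GENCODE vM21 transcripts on GRCm38, 5′ to 3′ on the coding strand. In Agt, capitals mark codons 30 to 37, which encode angiotensin II and end on the residues IHPF that were searched for. The stretch lies in exon 2 at chr8:124564441-124564494 on the minus strand.
Agt: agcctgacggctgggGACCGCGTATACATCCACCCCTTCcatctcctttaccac
In the peptidases, capitals mark the 5 codons of the zinc-binding motif HEXXH, where X is any residue. Ace held the motif 2 times, in exon 8 at chr11:105972895-105972939 and exon 20 at chr11:105985079-105985123 on the plus strand.
Ace, first site: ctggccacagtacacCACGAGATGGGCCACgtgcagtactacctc
Ace, second site: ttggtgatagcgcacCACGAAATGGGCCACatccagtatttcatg
Lnpep and Enpep held it 1 time each, in exon 6 of Lnpep and exon 5 of Enpep, both on the minus strand. In both genes only the lower-case bases after the motif run on into the next exon. The printed stretch spans exons 6 and 7 in Lnpep (chr17:17570874-17570906 and chr17:17568423-17568434). In Enpep it spans exons 5 and 6 (chr3:129309769-129309801 and chr3:129309124-129309135).
Lnpep: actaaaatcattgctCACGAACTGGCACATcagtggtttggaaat
Enpep: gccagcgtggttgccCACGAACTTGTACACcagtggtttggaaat
The Lnpep and Enpep stretches were identical at 34 of 45 bases, including all 15 after the motif, and the Ace sites at 32 of 45. Between an Ace site and Lnpep or Enpep, 15 to 18 of 45 bases were identical. The capitals in these stretches end 1734 to 10013 bases before the 3′ ends of the annotated transcripts, and QuantSeq reads lie near those ends. The counts therefore report on the abundance of the transcripts and not on these sites.

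HFD replicate 3 stood apart from the other libraries. Its 10 hypothalamic markers summed to 17.2 CPM, against 67.1 to 109 CPM in the other 5 libraries, its 8 thalamic markers to 406 CPM, against 437 to 522 CPM, and its 6 pituitary markers to 1264 CPM, against 2.08 to 8.95 CPM. Agt and Ace were lowest, and Agtr1a was at 0, in the same library, and the log2 changes of these genes are given with and without it. The 13 liver markers summed to 39.6, 70.4 and 14.0 CPM in the NCD replicates, against 9.36, 16.2 and 7.29 CPM in the HFD replicates, with 6 of the 13 at 0 in HFD replicate 3, and Agt, which liver also makes, was higher in NCD replicate 3 than in NCD replicate 2, where the liver markers were highest. The part of these tissues in the values of the members was not tested.

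At the gene level, 0 of 5 members past the count filter had an adjusted p under 0.05 in the quasi-likelihood test of edgeR after Benjamini-Hochberg adjustment, where 0% of the 13771 genes tested did. At an unadjusted p under 0.05 there were 0 of 5 members, against 3.68% of all genes tested. The HFD and NCD libraries overlapped for 8 of 8 members. They did not overlap for 8.81% of the genes past the filter, a share that stands beside only the 5 members past it. Agtr1a, Agtr2 and Enpep had too few reads for the filter, and in the fit without a filter 0 of these 3 had an unadjusted p under 0.05, against 4.76% of 18936 genes. DESeq2 and limma after quantile normalization gave 0 members at an unadjusted p under 0.05 as well. Since the members were chosen with this contrast known, nothing is read from these counts.

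**Figure D1:**
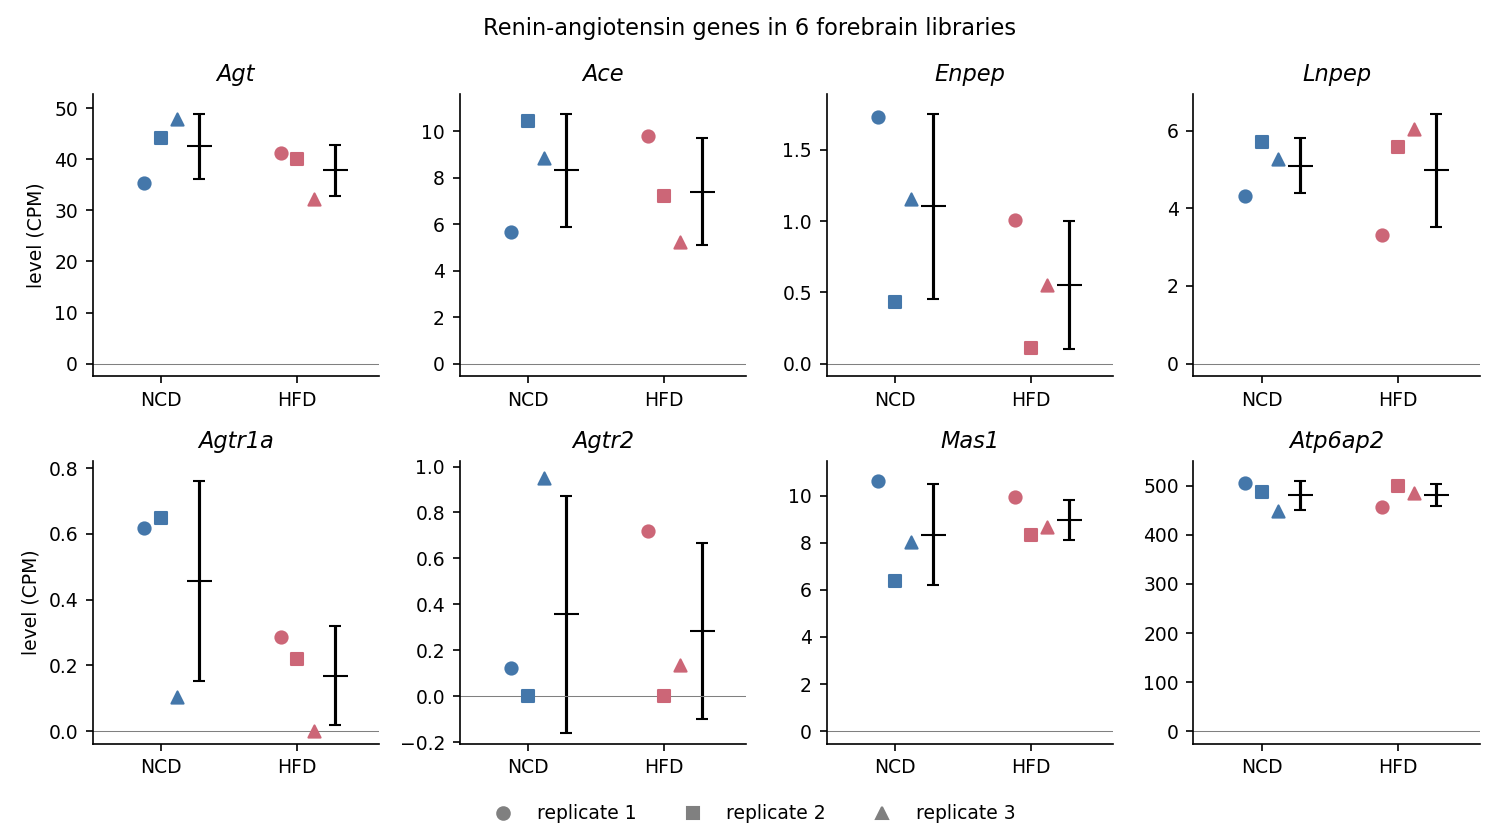
Level of each member (vertical axis, CPM, own scale per gene) in the 3 NCD and 3 HFD libraries (horizontal axis); points are libraries, with a symbol per replicate number, and the bar beside them is the mean with the SD (n = 3). The libraries of both diets overlapped for all 8 genes, and Atp6ap2, between 448 and 505 CPM, had the smallest ratio of highest to lowest library among the 8.

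The precursor gene Agt, on chromosome 8 from 124556534 to 124569706 of GRCm38, had 35.4, 44.2 and 47.9 CPM in NCD replicates 1, 2 and 3 and 41.3, 40.1 and 32.2 CPM in HFD replicates 1, 2 and 3. HFD replicate 3 was the lowest library and NCD replicate 3 the highest, and the groups overlapped because NCD replicate 1 lay below HFD replicates 1 and 2. The NCD mean was 42.5 ± 6.42 CPM (SD, n = 3), against an HFD mean of 37.9 ± 4.97 CPM (SD, n = 3). The log2 change, HFD over NCD, was -0.17 ± 0.14 (SE; 95% interval from -0.47 to 0.13), smaller than the spread between replicates. It was -0.07 without HFD replicate 3 and also without NCD replicate 3, and -0.28 without NCD replicate 1. In bulk tissue, fewer cells of a type and less RNA per cell cannot be told apart.

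Ace, which makes angiotensin II and also breaks down bradykinin, lies on chromosome 11 from 105967945 to 105989964 of GRCm38. Its level was 5.68, 10.5 and 8.85 CPM in NCD replicates 1 to 3, against 9.79, 7.21 and 5.22 CPM in HFD replicates 1 to 3. The highest library, NCD replicate 2, and the lowest, HFD replicate 3, differed by 2-fold, and each diet held a library below 6 CPM and a library above 9 CPM. The log2 change was -0.18 ± 0.27 (SE, 95% interval from -0.75 to 0.39). It was 0.02 without NCD replicate 2 and 0.01 without HFD replicate 3, but -0.42 without HFD replicate 1 and -0.38 without NCD replicate 1. Its sign and size rest on single libraries. The 3 coding transcripts of Ace, of 1312, 1015 and 732 codons, start at different sites and end between 105989253 and 105989964, and the counts do not separate them. Exons of the antisense gene Gm11651 share 295 bases with exons of Ace, and the use of strand in the counting is not given.

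Of the aminopeptidases, Lnpep, which cleaves oxytocin and vasopressin and binds angiotensin IV, lies on chromosome 17 from 17521410 to 17625050. It had 4.32, 5.72 and 5.27 CPM in NCD replicates 1 to 3, against 3.31, 5.57 and 6.05 CPM in HFD replicates 1 to 3. The HFD held both the lowest and the highest library, and the log2 change was -0.03 ± 0.29 (SE), turning to 0.18 without HFD replicate 1 and to 0.06 without NCD replicate 2. Enpep, which trims angiotensin II to angiotensin III and is a marker of pericytes, lies on chromosome 3 from 129269175 to 129332720. Its counts were 14, 4 and 11 reads in NCD replicates 1 to 3, against 7, 1 and 4 reads in HFD replicates 1 to 3. NCD replicate 2 lay below HFD replicate 1, so the groups overlapped. Summed over libraries, Enpep had 29 reads on the NCD and 12 reads on the HFD, a ratio of HFD to NCD of 0.476 with an exact 95% Clopper-Pearson interval from 0.221 to 0.961 that covers counting error only. In the fit without a count filter, which adds the spread between libraries, its log2 change was -1.02 ± 0.79 (SE, 95% interval from -2.57 to 0.53). It was -0.49 without HFD replicate 2, -0.56 without NCD replicate 1 and -1.76 without HFD replicate 1.

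The receptors differed in how well they could be measured. Mas1, on chromosome 17 from 12841079 to 12868143, was at 10.6, 6.36 and 8.01 CPM in NCD replicates 1 to 3, against 9.93, 8.3 and 8.66 CPM in HFD replicates 1 to 3. All HFD values lay within the range of the NCD values. The log2 change of Mas1 was 0.11 ± 0.23 (SE, 95% interval from -0.37 to 0.59). It was -0.05 without NCD replicate 2 and 0.31 without NCD replicate 1. Agtr1a, the type 1 receptor through which angiotensin II raises blood pressure and thirst, lies on chromosome 13 from 30336441 to 30382867. It had counts of 5, 6 and 1 reads in NCD replicates 1 to 3, against 2, 2 and 0 reads in HFD replicates 1 to 3, or 16 reads among the 50295712 of all libraries. Its ratio of HFD to NCD was 0.383, with an exact 95% interval from 0.0901 to 1.26 for counting error only. Agtr2, the type 2 receptor on chromosome X from 21484544 to 21489164, had counts of 1, 0 and 9 reads in NCD replicates 1 to 3, against 5, 0 and 1 reads in HFD replicates 1 to 3. NCD replicate 3 and HFD replicate 1 held 9 and 5 of its 16 reads, and its log2 change moved from -0.41 ± 1.22 (SE) to 1.95 without NCD replicate 3 and to -2.30 without HFD replicate 1. A floor of 3 reads equals 0.310 to 0.438 CPM, depending on the library. The 95% interval of the log2 change ran from -3.81 to 1.14 for Agtr1a and from -2.81 to 1.99 for Agtr2. Without HFD replicate 3, which held no Agtr1a read, the log2 change of Agtr1a was -0.81 in place of -1.33 ± 1.26 (SE).

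**Figure D2:**
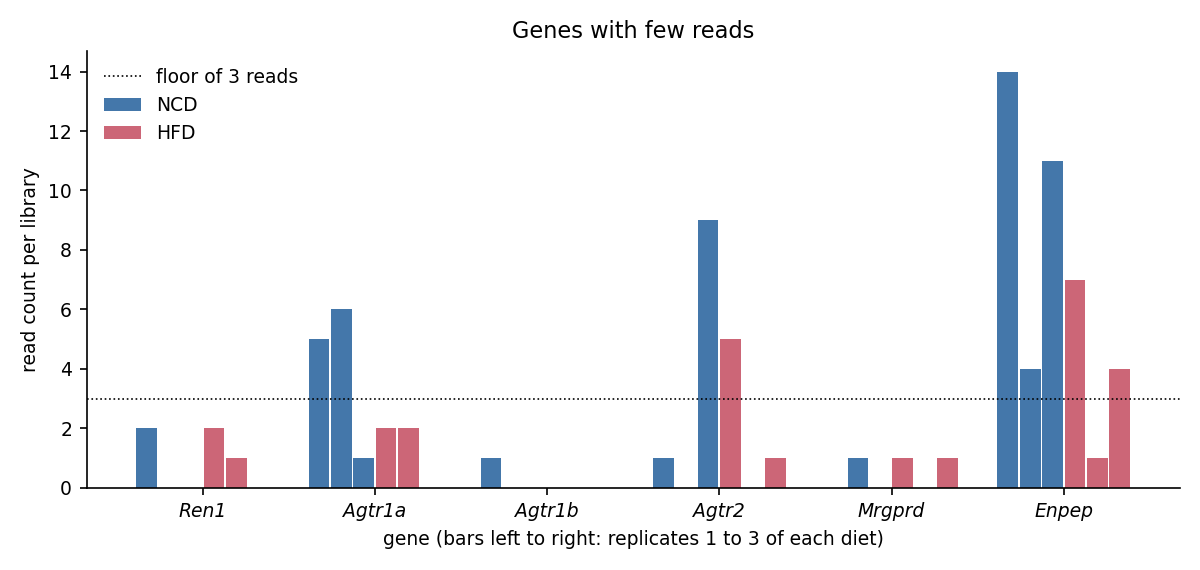
Read counts (vertical axis, reads per library) of Enpep, Agtr1a, Agtr2, Ren1, Agtr1b and Mrgprd, with 1 bar per library in the order NCD replicates 1 to 3, then HFD replicates 1 to 3; the dotted line is the floor of 3 reads. Agtr1a and Agtr2 had 16 reads each in all, Ren1 and Mrgprd were at 0 in 3 of 6 libraries, and Agtr1b was at 0 in 5.

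Atp6ap2, the prorenin receptor and also an accessory subunit of the vacuolar proton pump (V-ATPase), lies on chromosome X from 12587801 to 12617049. It had 505, 488 and 448 CPM in NCD replicates 1 to 3, against 457, 500 and 486 CPM in HFD replicates 1 to 3. The NCD mean of 480 ± 29.4 CPM (SD, n = 3) and the HFD mean of 481 ± 21.8 CPM (SD, n = 3) differed by less than the spread between replicates. The log2 change was 0.00197 ± 0.10 (SE), and its 95% interval ran from 0.869-fold to 1.15-fold. The 23 listed genes for the pump and its partner Atp6ap1 were compared in the same way, and of the 18 past the filter 0 had an unadjusted or adjusted p under 0.05 (the quasi-likelihood test of edgeR, and 0 with DESeq2 and limma). Their median log2 change was 0.02, against -0.00245 over all genes. The highest was Atp6v1c2 with 0.41 ± 0.37 (SE) and the lowest Atp6v0a1 with -0.17 ± 0.13 (SE). The groups did not overlap in 1 of the 18, against 8.81% of all genes, namely Atp6v0e, singled out after its values were seen. It had 29.9, 31.9 and 30.1 CPM in NCD replicates 1 to 3, against 32.8, 32.9 and 46.5 CPM in HFD replicates 1 to 3, with a log2 change of 0.28 ± 0.15 (SE, edgeR quasi-likelihood p of 0.0711, or 0.979 after Benjamini-Hochberg adjustment). It was 0.10 without HFD replicate 3, and its unadjusted p was 0.0379 without HFD replicate 1 and 0.0427 without HFD replicate 2.

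To place the members in their pathway, 24 other genes of the system were compared between the diets, from renin to the peptidases that cut angiotensins. Of these, 5 were listed at 0 in all libraries, 8 had too few reads for the filter and 11 were tested. At an unadjusted p under 0.05 there were 0 of the 11, against 3.68% of all genes, and after adjustment 0, both with the quasi-likelihood test of edgeR and with DESeq2 and limma. Of the log2 changes of the tested genes, 4 were above 0 and 7 below, with a median of -0.05. The highest belonged to Mme (neprilysin, which cleaves angiotensin I and many other peptides), with 12.3, 8.63 and 9.48 CPM in NCD replicates 1 to 3, against 12.5, 11.7 and 15.7 CPM in HFD replicates 1 to 3. NCD replicate 1 lay above HFD replicate 2, and the log2 change was 0.39 ± 0.20 (SE, edgeR quasi-likelihood p of 0.0688, or 0.979 after Benjamini-Hochberg adjustment). It was 0.55 without NCD replicate 1, with an unadjusted p of 0.0251 and an adjusted p of 0.998, and 0.26 without HFD replicate 3. The lowest belonged to Anpep, an aminopeptidase of pericytes and meninges that shortens angiotensin III, with counts of 25, 17 and 30 reads in NCD replicates 1 to 3, against 17, 32 and 3 reads in HFD replicates 1 to 3. Its log2 change was -0.31 ± 0.51 (SE, edgeR quasi-likelihood p of 0.551, or 0.979 after Benjamini-Hochberg adjustment), and it was 0.16 without HFD replicate 3. Agtrap, which binds the type 1 receptor and lowers its signalling, was between 10.7 and 12.6 CPM on the NCD and between 11.6 and 13.1 CPM on the HFD, with a log2 change of 0.09 ± 0.18 (SE).

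**Figure D3:**
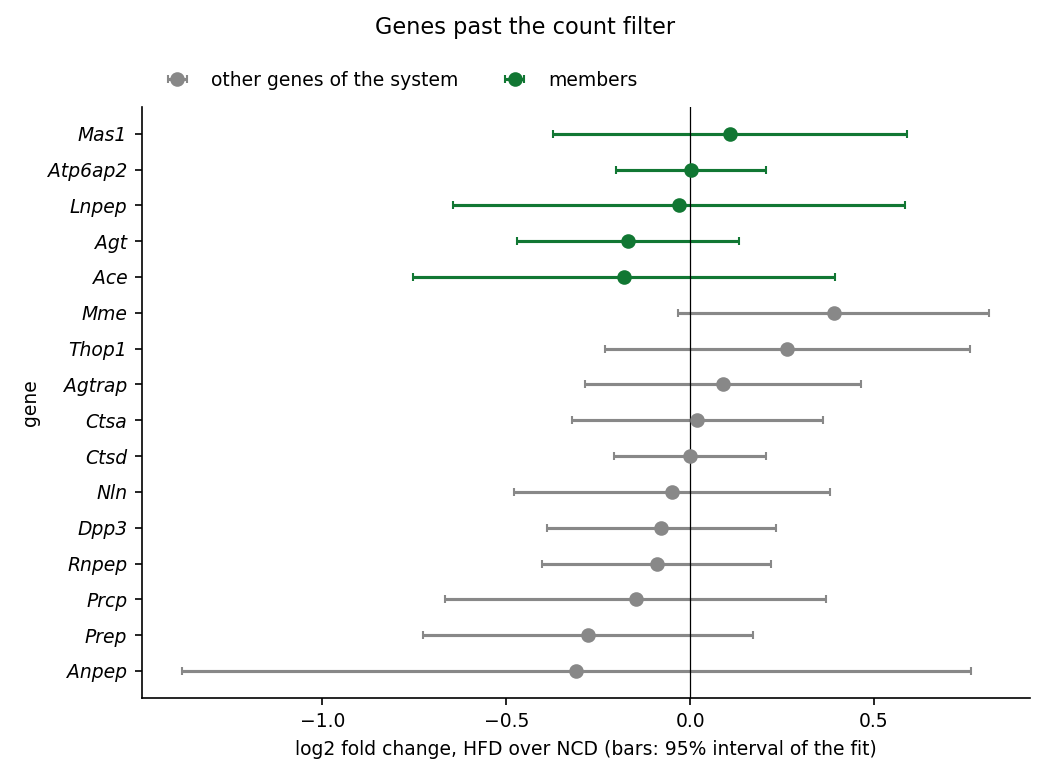
Log2 fold change of HFD over NCD (horizontal axis) for the 5 members (green) and 11 other renin-angiotensin genes (grey) past the count filter; points are estimates of the quasi-likelihood fit of edgeR and bars their 95% intervals. All 16 intervals include 0, from the narrow one of Atp6ap2 to the wide one of Anpep. In the quasi-likelihood test of the same fit, 3.68% of the 13771 genes tested had an unadjusted p under 0.05. The members were chosen with this contrast known, so nothing is read from their intervals including 0.

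The start of the pathway was near the limit of these libraries. Renin itself (Ren1) had counts of 2, 0 and 0 reads in NCD replicates 1 to 3, against 2, 1 and 0 reads in HFD replicates 1 to 3. Ren2, the duplicate of Ren1 in other mouse strains, was listed at 0 in every library, which is no measure of a level in these C57BL/6J mice. Klk1, Ctsg, Bdkrb1 and Bdkrb2 were also at 0 in every library, which allows up to 0.0596 CPM over the 6 libraries. Agtr1b, the second type 1 receptor of mice, had 1 read in all, and Mrgprd, a receptor of a related peptide, had 3.

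Downstream of the type 1 receptor, 13 of 18 genes of G proteins, receptor kinases, arrestins, the aldosterone arm and related proteins were tested, and 0 had an unadjusted or adjusted p under 0.05 (the quasi-likelihood test of edgeR, and 0 with DESeq2 and limma). The median log2 change was -0.05. The highest was Scnn1a, a subunit of the epithelial sodium channel, with 0.67 ± 0.50 (SE, edgeR quasi-likelihood p of 0.193, or 0.979 after Benjamini-Hochberg adjustment), and it was 0.29 without HFD replicate 1. The lowest was the arrestin gene Arrb2, with 7.65, 8.95 and 7.48 CPM in NCD replicates 1 to 3, against 5.18, 7.43 and 6.32 CPM in HFD replicates 1 to 3, a log2 change of -0.34 ± 0.23 (SE, edgeR quasi-likelihood p of 0.162, or 0.979 after Benjamini-Hochberg adjustment). Arrb2 was the 1 gene of the 13 whose groups did not overlap, against 8.81% of all genes. The aldosterone synthase gene Cyp11b2 was listed at 0 in every library, and Hsd11b2, which shields the mineralocorticoid receptor from glucocorticoids, had 1 read.

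The spread of each member over the 6 libraries was compared with counting noise, for which the chi-square per degree of freedom would be near 1. It was 9.58 for Atp6ap2, whose high counts make small differences visible, 6.76 for Agt, 4.80 for Ace, 2.24 for Mas1 and 1.55 for Lnpep. Of the members with few reads it was 4.58 for Agtr2, 3.57 for Enpep and 1.88 for Agtr1a. Ace and Mas1 moved apart in NCD replicate 2, where Ace was highest and Mas1 lowest, and in NCD replicate 1, where Mas1 was highest and Ace second lowest. In HFD replicate 1, however, both were second highest (9.79 CPM for Ace and 9.93 CPM for Mas1). Likeness to a member was measured as the mean absolute difference of log2(CPM + 1) deviations over the 6 libraries, among 13770 other genes. The 3 nearest genes were Atp8b1, Rep15 and Eif4ebp3 for Ace (differences between 0.0698 and 0.0702, where the median gene differed by 0.326) and Med20, Rab3gap2 and Ptrf for Agt (between 0.0299 and 0.0372, median 0.208). For Lnpep they were Hook1, Cyb5rl and Angpt1 (between 0.0188 and 0.0442) and for Atp6ap2 Taf3, Ccdc115 and Slc25a11 (between 0.0141 and 0.0148). These profiles share their 6 libraries and are given as a description.

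Marker genes of the cell types and regions that make the members were set beside them. The summed level of 12 astrocyte markers was between 5106 and 5334 CPM on the NCD and between 4871 and 5263 CPM on the HFD, and that of 14 choroid plexus markers was between 1522 and 1890 CPM on the NCD and between 1592 and 1739 CPM on the HFD. The 11 mural cell markers, which stand for the pericytes that make Enpep, summed to between 105 and 114 CPM on the NCD and between 104 and 132 CPM on the HFD. Endothelial markers summed to between 238 and 296 CPM, striatal markers to between 1042 and 1155 CPM and hippocampal markers to between 217 and 257 CPM over the 6 libraries, and neuronal markers to between 5339 and 5876 CPM. Microglial markers summed to between 294 and 325 CPM and oligodendrocyte markers to between 7470 and 9084 CPM. None of the neuronal, astrocyte or choroid plexus markers was at 0 in any library, and 1 or 2 of the striatal markers were at 0 in each. The astrocyte sum was highest in NCD replicate 3 and lowest in HFD replicate 3, the libraries in which Agt was highest and lowest. This was not particular to astrocytes, as the neuronal sum was highest and lowest in the same 2 libraries. In NCD replicate 2, where Agt was second highest, the astrocyte sum was 5106 CPM, the lowest on the NCD. The endothelial and mural sums were also lowest in HFD replicate 3, where Ace was lowest, though the mural sum was 104 CPM there and 105 CPM in NCD replicate 1. Of single mural markers, Pdgfrb was lowest in HFD replicate 3 (6.60 CPM) but Rgs5 was highest there (29.1 CPM). The endothelial sum was 278 CPM in NCD replicate 1, where Ace was second lowest. It was 255 CPM in NCD replicate 2, where Ace was highest. The choroid plexus sum was lowest in NCD replicate 1 and was 1622 CPM in HFD replicate 3. The striatal sum was lowest in NCD replicate 3 and was 1129 CPM in HFD replicate 3. The part of these cell types in the values of Agt and Ace was not tested.

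**Figure D4:**
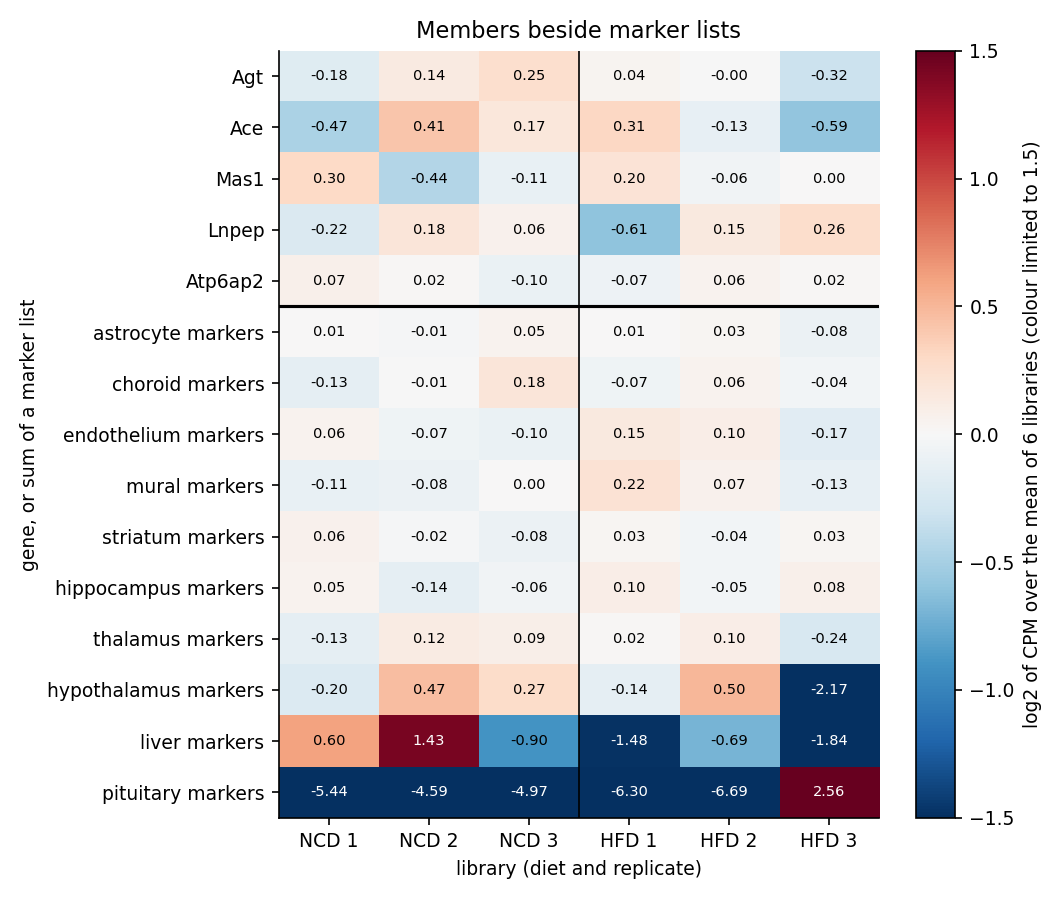
Members past the count filter and summed marker lists (rows) in each library (columns), as log2 of the CPM over the mean of the 6 libraries; numbers are the values and colours are limited to 1.5 in either direction. In HFD replicate 3, where Agt and Ace were lowest, the astrocyte sum was also lowest (4871 CPM), hypothalamic markers summed to 17.2 CPM and pituitary markers to 1264 CPM. The neuronal sum, not drawn here, was lowest there too (5339 CPM).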

How the data were processed

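QuantSeq 3′ libraries of forebrain RNA were sequenced by the authors as single-end reads of 75 bp, trimmed, aligned to mm10 with Bowtie2 and counted per gene symbol with Bedtools from unique and multiple alignments. The deposited files hold these raw read counts, without the quantile normalization that the study's methods name. The annotation, the use of strand and tool versions are not given in the sources used here. Reads shared with near-identical genes such as Agtr1b cannot be assigned with certainty.

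The 8 members and all gene lists were chosen with earlier results of these data known. Tests used edgeR 4.0.16 under R 4.3.3 (filterByExpr with a minimum count of 10, TMM, glmQLFit and glmQLFTest, no covariate, Benjamini-Hochberg adjustment over 13771 genes), with limma 3.58.1 and DESeq2 1.42.0 as alternatives. Genes under the filter took their values from the fit without it. Each standard error was obtained by dividing the absolute log2 change by root F. The tests were checked on simulated data. Libraries of 1 diet differed beyond sampling noise, with a chi-square of 3.47 to 16.0 per degree of freedom, so each was kept as a sample. Named genes were all members, Ren1, Agtrap, Mme and Anpep for their role, the extremes of each list, genes with an unadjusted p under 0.05, and the 3 genes nearest to each member past the filter. Other genes were named after their values were seen. Some results under this rule are not reported here. Gene positions and sequences come from GENCODE vM21 on GRCm38. No molecular identifiers were available in the counts, so the exact intervals of the count ratios and the floors cover counting error only. The intervals of the log2 changes come from the quasi-likelihood fit of edgeR and also include the spread between libraries. Figures and tables used Python 3.11.15 and matplotlib 3.10.9.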

Additional observations from a re-analysis of the deposited data

How the results depend on the processing

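Of the 8 members, 0 had an unadjusted p under 0.05 in each alternative that could be fitted, namely DESeq2, limma after quantile normalization, RLE size factors, the total count alone, other count filters, the replicate block, and the fits that leave out 1 library. Since the members were chosen with this contrast known, this is a count and no sign of stability. Agtr1a, Agtr2 and Enpep could not be fitted with quantile normalization or with at least 10 counts in every library, and their fits without a filter under another scaling, the block or a left-out library were chosen after seeing the data. Scaling moved the median log2 fold change of all genes by at most 0.02. Over all genes, the fit without a count filter gave 23 genes with an adjusted p under 0.05 and 902 with an unadjusted one, in place of 0 and 507, among 18936 genes, and the cause was not tested. With each library left out in turn these counts ran from 0 to 3 and from 411 to 773, highest without NCD replicate 3 and without HFD replicate 1, and the cause was not tested. Among the other renin-angiotensin genes the count at an unadjusted p under 0.05 ran from 0 to 1 (Mme, without NCD replicate 1), and among the V-ATPase genes from 0 to 1 (Atp6v0e, without HFD replicate 1 or 2). The log2 fold change of Ren1 was -0.29 without HFD replicate 1 in place of 0.67, and that of Anpep ran from -0.92 without HFD replicate 2 to 0.16 without HFD replicate 3, while that of Ren1 reached 3.28 without NCD replicate 1. Deviations of libraries with the same replicate number correlated between -0.07 and 0.03, so the numbers were not taken as pairs. With the replicate block, 371 genes had an unadjusted p under 0.05 and 0 an adjusted one, and 0 of the members and other listed genes passed. Agtr1a, Agtr2, Enpep and Ren1 rest on few reads, and Agtr2 and Enpep also varied between libraries by more than counting noise (chi-square per degree of freedom of 4.58 and 3.57).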
